A study of Mus musculus and Rattus norvegicus with 96 samples.

Results

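Immediate early genes are transcribed within minutes of a signal and need no new protein for it, since kinases of the MAP kinase, cAMP and stress pathways act on factors that already sit at their promoters. Their transcripts are short-lived, many carry AU-rich elements that target them for decay, and several of their proteins act back on the same kinases or transcripts. In the liver these genes are known to respond to partial hepatectomy, to ischaemia and to the handling of tissue.

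The 10 genes described here were chosen by symbol, as 10 of the 24543 genes in the mouse liver table, and followed through 4 preparations of the same livers. Of these, 5 encode leucine zipper transcription factors: Fos, Jun and Junb, which pair to form AP-1, Atf3, a stress-induced relative, and Maff, a small Maf protein that lacks an activation domain of its own. Egr1 encodes a zinc finger transcription factor. Ier2 encodes an early response nuclear protein and Ier3 a stress-induced protein linked to cell survival. Dusp1 encodes a phosphatase that switches off MAP kinases, and Zfp36 encodes tristetraprolin, which binds AU-rich elements and promotes the decay of mRNA. All 10 passed the filter on low counts in mouse liver.

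Livers of 12 male B6C3F1 mice were collected after 7 days on 600 ppm phenobarbital (PB, n = 6) or vehicle water (Con, n = 6). Tissue of each liver was frozen, or placed directly into 10% neutral buffered formalin for 18-24 h and embedded in paraffin (FFPE). The frozen tissue was later divided. Its portions stayed frozen (FR) or were fixed in the same formalin (FR>FFPE) or in 70% ethanol (FR>OH) before embedding. This gave 48 libraries of rRNA-depleted total RNA in 8 groups of 6. FFPE thus came from other pieces of the liver than FR, FR>FFPE and FR>OH, and the piece cannot be told apart from direct fixation. The same symbols were read in 3 tables from TempO-Seq, a targeted assay in which probe pairs ligate on the RNA: liver of male F344 rats on vehicle (FR, FR>FFPE and FFPE, n = 6 each), lung of male WKY rats on vehicle (FR, FR>FFPE and tissue held in formalin for 1 yr, FFPE 1yr, n = 6 each) and AML12, a hepatocyte line from a male CD-1 mouse, given saline or 0.006%, 0.03% or 0.1% formalin for 10 min (n = 3 each). RNA of FR mouse livers was extracted by another method than RNA of embedded livers. Fixation therefore cannot be told apart from extraction in the comparisons with FR. Most embedded libraries also carried other L numbers in their names than FR. These numbers are called lanes here, but the labels do not say in words what they are. In TempO-Seq, frozen tissue entered as purified RNA and fixed tissue as a lysate of sections freed of paraffin, which likewise cannot be told apart from fixation.

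Frozen libraries held 11737338 to 13702672 counts assigned to genes, FFPE libraries 4952797 to 6760422, FR>FFPE libraries 5534973 to 10681783 and FR>OH libraries 8167321 to 11539022. These were 46.6 to 51.8% of the total by which the authors divided in FR but 21.4 to 27.5% in FFPE, so the choice of total moved all genes. For FFPE vs. FR, the median of all 13370 tested genes was a log2 fold change of 0.32 on the total over tested genes used here, 0.04 with TMM scaling and -0.63 on the authors' total, and changes are therefore given beside the median of all genes. Summed over 7 hepatocyte markers, the median level was 79298 CPM (counts per 1e6 of the column total) in frozen Con livers against 37631 CPM in FFPE Con livers. Macrophage markers went from 512 to 292 CPM and endothelial markers from 395 to 441 CPM, and no marker of these lists was at 0. Their part in the results was not tested, and in bulk tissue fewer cells of a type and less RNA per cell cannot be told apart.

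The genes shared a compact build (GENCODE M21, GRCm38/mm10). They had 1 to 4 exons with a median of 2, where the median tested gene had 9. Jun (chr4:95049036-95052223), Junb (chr8:84976909-84978749) and Ier2 (chr8:84661331-84662853) had 1 exon, as did 3.38% of tested genes. A span under 4000 bases was found for 7 of the 10 genes and for 9.72% of tested genes. GC content of their transcripts ran from 51.9 to 62.6%, each above the 49.9% of the median tested gene.

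Promoter windows of 250 bases before a start were taken from RefSeq (GRCm38.p6) for 8 of the 10 genes, with 10 windows in all. Of these, 3 stretches are shown because they carry elements through which cAMP and serum signals are known to reach early genes. The Maff stretch lies before a start inside the mm10 span of the gene (chr15:79346621-79359077), not before the first base of that span. The cAMP response element, TGACGTCA, was searched on both strands and stood in 1.55% of 32851 mouse promoters and, among the genes, in those of Dusp1 and Maff. The serum response element, or CArG box, searched on both strands, stood in 1.47% of promoters and in that of Zfp36. TATAAA on the forward strand stood in 7.59% of promoters and in that of Fos, and the AP-1 site TGACTCA, on either strand, in 4.46% and in none of the 8 genes. Capitals mark the CArG box of Zfp36 at chr7:28379267-28379296 (minus strand) and the cAMP response elements of Dusp1 at chr17:26508523-26508622 (minus strand) and of Maff at chr15:79347420-79347519 (plus strand).
Zfp36: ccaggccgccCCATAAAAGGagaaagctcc
Dusp1: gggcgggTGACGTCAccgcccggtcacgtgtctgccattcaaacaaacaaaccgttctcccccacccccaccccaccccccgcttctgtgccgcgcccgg
Maff: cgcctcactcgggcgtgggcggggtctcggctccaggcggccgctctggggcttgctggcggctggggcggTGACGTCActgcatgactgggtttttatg

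In FR liver the 2 feedback genes, Junb and Ier2 were the most abundant for their length. Zfp36 stood at 9.39 ± 2.77 CPM per kb (SD, n = 12 libraries), Junb at 6.88 ± 3.39, Dusp1 at 6.30 ± 1.43 and Ier2 at 5.42 ± 1.21 CPM per kb, each within 1 SD of the next. Jun followed at 2.68 ± 0.99 and Egr1 at 1.73 ± 1.90 CPM per kb. Atf3, Maff, Fos and Ier3 were below 1 CPM per kb and differed from their neighbours by less than the SD. Groups of these last 4 genes had median counts of only 3 to 22.5 per library. In FFPE liver Zfp36 was again first, at 23 ± 5.05 CPM per kb.

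**Figure D1:**
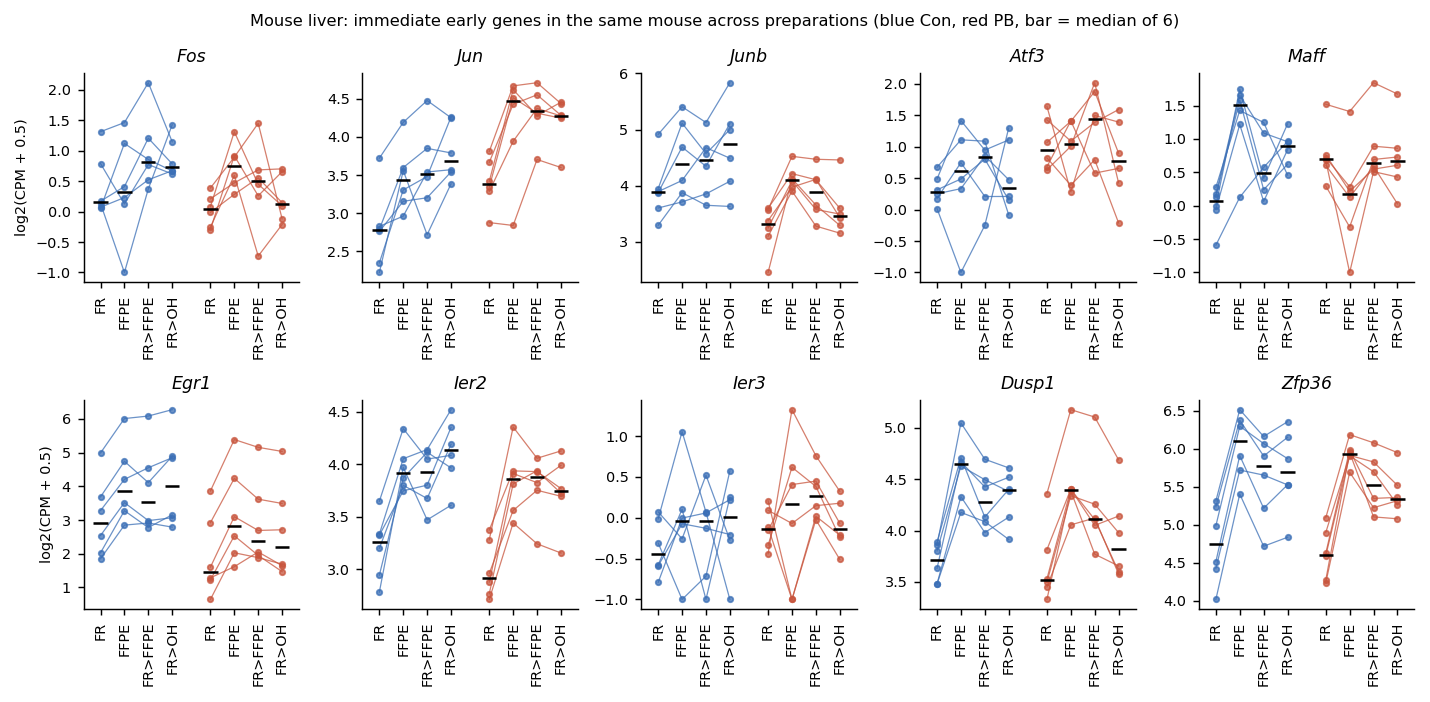
Level of each of the 10 genes in mouse liver (y axis, log2(CPM + 0.5)) in the 4 preparations, 1 point per library and lines joining the libraries of 1 mouse, blue for Con, red for PB and a black bar for the median of 6. The Con libraries of Zfp36 lie at 15.7-39.2 CPM in FR and 41.8-90.7 CPM in FFPE, while for Egr1 the lines of single mice lie farther apart than the preparations.

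The first comparison asked how direct fixation in formalin changed these transcripts against frozen tissue of the same mice. Zfp36 rose in FFPE vs. FR and was the only one of the 10 genes past an adjusted p of 0.05 and a 2-fold change in both treatments, where 10.8% of all genes were. Fold changes of all 10 lay above 0 on the total over tested genes, with a median log2 of 0.81 against 0.32 for all genes, but 8 of 10 lay below 0 on the authors' total, where the median was -0.14 against -0.63. On either total 9 of 10 lay above the median of all genes in edgeR. In limma on the authors' log2 CPM 6 of 10 did, with a median of -0.19 against -0.69 for all genes.

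Zfp36 in FR Con mice had 15.7 CPM in the lowest library, a median of 26.8 and 39.2 CPM in the highest, and in FFPE Con mice 41.8, 68.8 and 90.7 CPM. In FR PB mice the values were 18.4, 23.9 and 33.6 CPM, and in FFPE PB mice 51.1, 60.5 and 72.2 CPM. The 12 FFPE libraries all lay above the 12 FR libraries, which held for no other of the 10 genes and for 16.1% of all genes. The log2 fold change was 1.28 (SE 0.23) in Con mice, with an adjusted p of 6.5e-06 in edgeR's quasi-likelihood test with Benjamini-Hochberg adjustment, and 1.31 (SE 0.23) in PB mice, with an adjusted p of 4.4e-06. Within the mouse, Zfp36 differed by 1.30 ± 0.18 on the log2(CPM + 0.5) scale (SD, n = 12 mice). On the authors' total the average was 0.36 and no longer passed, and in DESeq2 it was 1.01 and missed 2-fold in Con mice.

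Dusp1, the other feedback gene, had 10.7, 12.7 and 14.3 CPM (lowest, median, highest) in FR Con and 17.6, 24.6 and 32.5 CPM in FFPE Con. Its PB libraries had 9.56, 10.9 and 20.0 CPM in FR and 16.1, 20.5 and 35.6 CPM in FFPE. Con libraries did not overlap, as was so for 3 of the 10 genes and for 25.8% of all genes, while in PB mice the FR library of mouse 18B stood above the lowest FFPE library. The log2 fold changes of 0.94 (SE 0.20) and 0.82 (SE 0.20) passed the adjusted p in edgeR (0.00012 and 0.00059) but not 2-fold, and the average was -0.07 on the authors' total.

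Ier2 had 6.38, 9.10 and 12 CPM in FR Con against 12.9, 14.6 and 19.7 CPM in FFPE Con, with no overlap. Its log2 fold changes of 0.77 (SE 0.17) in Con and 0.89 (SE 0.17) in PB mice passed the adjusted p in edgeR (0.00017 and 2.4e-05) but not 2-fold, and the average was -0.12 on the authors' total. With the adjusted p alone, 4 genes passed in both treatments (Dusp1, Ier2, Jun and Zfp36), where 51.2% of all genes did. With the replicate block, a fit with the mouse as a term, 6 did, against 59.4% of all genes.

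The AP-1 subunit Jun had 4.18, 6.35 and 12.7 CPM in FR Con against 7.30, 10.3 and 17.7 CPM in FFPE Con, which overlapped. Its log2 fold changes were 0.68 (SE 0.28) in Con and 0.89 (SE 0.26) in PB mice, and -0.16 on average on the authors' total. Its partner Junb had 9.33, 14.3 and 29.7 CPM in FR Con against 12.6, 20.9 and 41.9 CPM in FFPE Con. These overlapped too, while its PB libraries, with 4.99, 9.47 and 11.6 CPM in FR and 14.5, 16.7 and 22.5 CPM in FFPE, did not, as was so for 25.7% of all genes. Of the log2 fold changes of 0.62 (SE 0.30) and 0.91 (SE 0.32) the PB value passed the adjusted p in edgeR (0.013), with an average of -0.17 on the authors' total.

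Fos, read on few counts, had a log2 fold change of 0.19 (SE 0.47) in Con mice and was called in PB mice at 1.20 (SE 0.49), edgeR adjusted p = 0.032, where 16.6% of genes were called. Its PB libraries had 0.316, 0.525 and 0.808 CPM in FR and 0.717, 1.18 and 1.98 CPM in FFPE, which overlapped. That call was lost with TMM scaling (0.91) and without mouse 20D (adjusted p = 0.098) or 75C (0.117). Atf3 had 0.52 (SE 0.46) in Con and -0.11 in PB mice, and Ier3 0.86 (SE 0.65) and 0.80, none past the test.

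Egr1 differed more between mice than between preparations, and a fit with the mouse as a block changed its call. In FR Con the lowest, median and highest libraries had 3.11, 7.26 and 31.2 CPM, and in FFPE Con 6.70, 14.4 and 63.9 CPM. PB mice had 1.06, 2.24 and 14.0 CPM in FR and 2.57, 6.68 and 41.3 CPM in FFPE. The groups overlapped widely in both treatments, yet FFPE was above FR in 12 of 12 mice, by 1.13 ± 0.33 on the log2(CPM + 0.5) scale. Without the block the log2 fold changes were 1.08 (SE 0.74) and 1.48 (SE 0.81) with edgeR adjusted p of 0.21 and 0.11. With the replicate block the average was 1.25 and Egr1 was called beside Zfp36 in both treatments, so that 2 genes were called, where 11.1% of all genes were. With the lane as a term in place of the block, Egr1 was at 0.04, and on the authors' total at 0.36.

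Higher values in FFPE than in FR in 12 of 12 mice were found for 5 genes (Junb, Egr1, Ier2, Dusp1 and Zfp36), where 34.1% of all genes had them, although 3 of the 5 (Junb, Ier2 and Dusp1) averaged below 0 on the authors' total. A trend of the fold change on transcript length and GC content over all genes was also taken off. Zfp36 then stood 0.78 above the trend, against 0.97 above the median of all genes, and Egr1 0.39 against 0.95. For the single-exon genes Jun and Junb the distance went from 0.46 to 0.11 and from 0.44 to 0.08, and for Ier2, the other gene with 1 exon, from 0.51 to 0.38. Dusp1 was at 0.63 above the trend against 0.56, and Ier3 at 0.93 against 0.51.

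**Figure D2:**
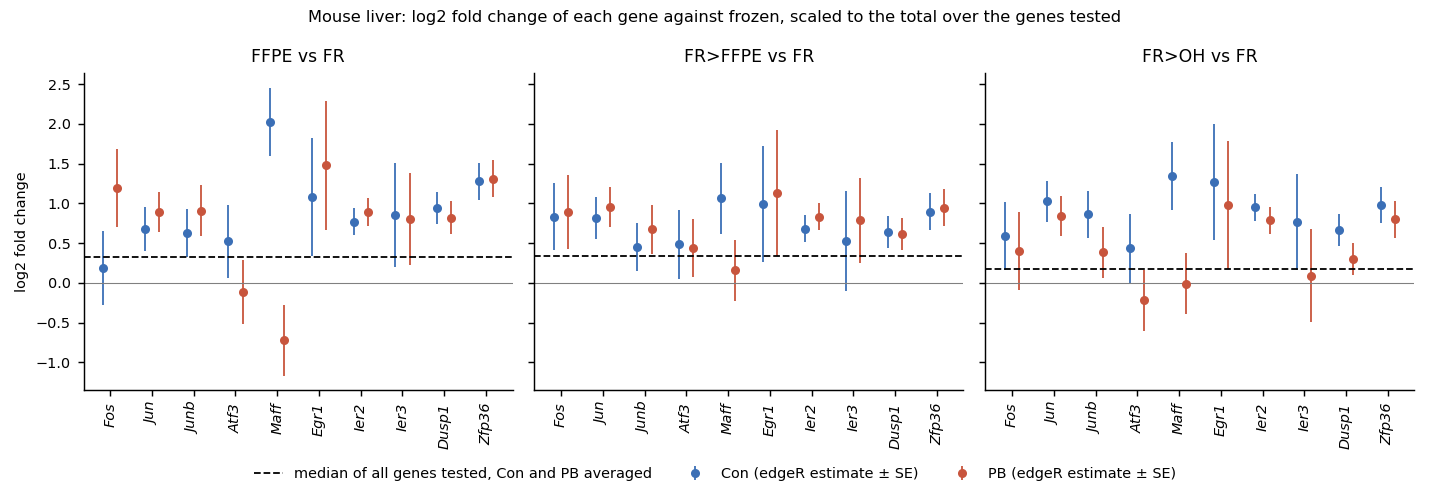
Log2 fold changes of the 10 genes (y axis) against FR in FFPE, FR>FFPE and FR>OH mouse liver, scaled to the total over tested genes, blue for Con and red for PB mice, with bars for the SE of edgeR and dashed lines for the median of all 13370 genes. Zfp36 stands at 1.28 and 1.31 in FFPE vs. FR, where on the authors' total 8 of 10 averages lie below 0, and Maff stands apart in Con mice at 2.03.

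Freezing before fixation, and ethanol in place of formalin, asked whether direct contact of fresh tissue with formalin was needed for such differences. Against FR, the median log2 fold change of the 10 genes was 0.71 in FR>FFPE (all genes 0.34) and 0.65 in FR>OH (all genes 0.18), and on the authors' total 0.34 and 0.32, with 10 and 9 of the genes above 0 there. None of the 10 was called in both treatments in edgeR in either comparison, where 3.99% and 2.56% of all genes were, and DESeq2 also called none. At an unadjusted p under 0.05 in both treatments edgeR had 4 and 3 of the 10. Of all genes, 43.6% and 31.8% passed even the stricter adjusted p in both treatments. The 3 comparisons share the same FR libraries, so their values stand side by side and are not independent.

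Zfp36 had lowest, median and highest libraries of 25.8, 54.5 and 71 CPM in FR>FFPE Con and 28.0, 51.7 and 81.2 CPM in FR>OH Con. Both ranges overlapped with FR and with FFPE. Its PB libraries stood at 33.9, 45.8 and 67 CPM in FR>FFPE, with no overlap with FR (as for 28.7% of all genes), and 33.3, 39.9 and 61.2 CPM in FR>OH, which overlapped with FR. The log2 fold changes from FR were 0.90 and 0.95 (SE 0.23 each, Con and PB) in FR>FFPE, with edgeR adjusted p of 0.0012 and 0.0005, and 0.98 and 0.80 (SE 0.23 each) in FR>OH, with edgeR adjusted p of 0.00051 and 0.0046. Without the fold limit 4 genes passed in FR>FFPE (Dusp1, Ier2, Jun and Zfp36, against 43.6% of all genes) and 3 in FR>OH (Ier2, Jun and Zfp36, against 31.8%). With the replicate block these were 7 and 6, against 55.4% and 43.9%, with Egr1 and Junb in both.

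Jun was called in Con mice in FR>OH at 1.03 (SE 0.26), edgeR adjusted p = 0.0014, where 4.55% of genes were called, but stood at 0.84 in PB mice and under 2-fold in Con mice without mouse 8A (0.83) or 8D (0.996) and with TMM scaling (0.85). Maff was also called in Con mice there, at 1.35 (SE 0.43), edgeR adjusted p = 0.0098. In FR>FFPE Con mice, where 5.42% of genes were called, Maff at 1.06 (SE 0.44) had an edgeR adjusted p of 0.044 that was lost in 13 of 20 alternatives, among them leaving out 21C, 75C, 80B, 82B, 8C, 8D or 90C (adjusted p = 0.051 to 0.149).

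Direct fixation and fixation after freezing were also compared with each other, with the same fixative and extraction on both sides. FFPE libraries were in lanes 1 and 2 and FR>FFPE libraries in lanes 3 and 4, so lane cannot be told apart from preparation here. FFPE and FR>FFPE also came from separate pieces of each liver. Counts assigned to genes were 21.4 to 27.5% of the authors' total in FFPE and 31.7 to 40.5% in FR>FFPE. None of the 10 was called in edgeR, where 0.127% of all genes were, and none passed the adjusted p alone, where 8.18% did, nor an unadjusted p of 0.05 in both treatments, and DESeq2 called none. On average Zfp36 was 0.37 higher in FFPE than in FR>FFPE, Dusp1 0.25, Egr1 0.21 and Junb 0.21, and the other 6 lay between -0.26 (Atf3) and 0.17 (Ier3), but all 10 lay below 0 on the authors' total. Zfp36 was higher in FFPE in 12 of 12 mice, as were 4.28% of all genes, and passed the adjusted p with the replicate block at 0.40 in Con and 0.38 in PB mice (edgeR adjusted p = 6.1e-05 and 7.8e-05), where 19.6% of all genes passed in both, below 2-fold and with the sign turned on the authors' total (-0.19). FR>FFPE vs. FR>OH called none of the 10 in edgeR, where 0.00748% of all genes were called, with none at an unadjusted p under 0.05 in both treatments, and DESeq2 called none. Averages there ran from -0.11 for Ier2 to 0.37 for Fos, with 5 of 10 above 0, or 4 of 10 on the authors' total.

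The mouse and the preparation took different shares of the spread in different genes. Over the 48 libraries the sum of squares of log2(CPM + 0.5) was split into treatment, mouse within treatment, preparation, preparation by treatment and the rest. For Egr1, 70.5% lay between mice of a treatment and 9.91% between preparations. For Zfp36, 59.2% lay between preparations and 35.4% between mice, and for Ier2 58.1% and 24.9%. Junb had 45.6% between mice, 24.6% between treatments and 16.9% between preparations. The medians over the 10 genes were 34.7% between mice and 13.4% between preparations, where all genes had medians of 22.0% and 34.5%. The share of the preparation went with the level: genes of like level to Fos, Atf3, Maff and Ier3 had medians of 11.6 to 15.9%, and those of like level to Egr1 37.6% and to Junb 42.2%. For Ier3, at median counts of 3 to 7 per group, 68.6% was in the rest.

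**Figure D3:**
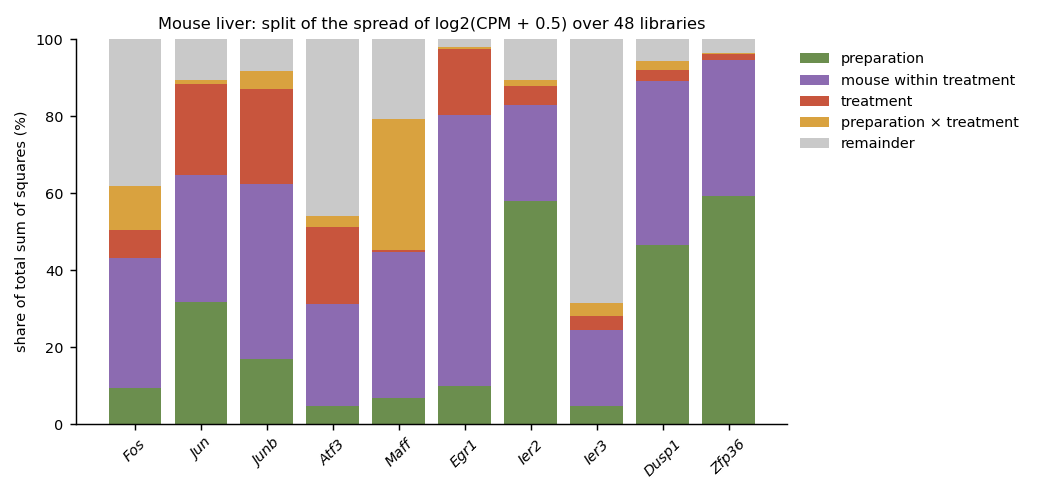
Share of the sum of squares of log2(CPM + 0.5) over the 48 mouse liver libraries (y axis, percent) taken by preparation, mouse within treatment, treatment, preparation by treatment and the remainder, 1 stacked bar per gene. The mouse takes 70.5% in Egr1, the preparation 59.2% in Zfp36, and preparation by treatment 34.1% in Maff.

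For some of the genes the same mouse was highest in each of the 4 preparations. For Egr1, mouse 90C was highest among Con mice in all 4, at a mean of 59.8 CPM against 5.82 CPM in the lowest, 8C, a ratio of 10.3, while the highest and lowest preparation differed by 2.42 times. Among PB mice 20D had 30.7 CPM and 80B 2.64 CPM, a ratio of 11.6 against 2.78 between preparations. Mouse 90C was also highest of the Con mice in all 4 preparations for Junb and 8D for Zfp36, and of the PB mice 20D for Maff and Zfp36 and 18B for Dusp1. For Fos, Jun, Atf3, Ier2 and Ier3 no mouse was highest in all 4. For Zfp36 the ratio between mice was 2.53 in Con and 1.61 in PB, and that between preparations 2.43 and 2.48.

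Across the 12 mice, levels in each embedded preparation were compared with levels in FR after centring within the treatment, which gave 30 relations. For Egr1, Pearson's r with FR was 0.969 (FFPE), 0.970 (frozen first, then formalin) and 0.967 (then ethanol), and Spearman's rho was 0.923, 0.965 and 0.846, with an adjusted p of 3e-04 for each r (permutation test within treatment). Without mice 20D and 90C, r was 0.922, 0.923 and 0.915. For Zfp36, r was 0.920, 0.917 and 0.949, with an adjusted permutation p of 9e-04, 7.8e-04 and 3e-04, and without mice 8C and 8D 0.850, 0.850 and 0.919. For Ier3, r ranged from -0.543 to 0.085, and for Fos in FR>OH it was 0.070. Of the 30 relations 28 were above 0, 16 passed an adjusted p of 0.05 for r and 13 passed for both r and rho. No share of all genes is given beside these counts. Libraries of the same mouse also resembled each other over 7693 genes, with a median residual correlation of 0.709.

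For PB against Con mice, Maff was called in FR, where 2% of all genes were, and in FFPE, where 1.92% were, in opposite directions. In FR the Con libraries had 0.164, 0.546 and 0.709 CPM (lowest, median, highest) and the PB libraries 0.727, 1.12 and 2.37 CPM, with no overlap, as was so for 4.2% of all genes with PB higher. In FFPE the Con libraries had 0.592, 2.34 and 2.86 CPM and the PB libraries 0, 0.626 and 2.16 CPM, and the groups overlapped. The count of 0 was in mouse 18D, whose depth allows up to 0.606 CPM by counting error alone.

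The log2 fold change of Maff for PB vs. Con was 1.29 (SE 0.42) in FR, edgeR adjusted p = 0.044, and -1.46 (SE 0.45) in FFPE, edgeR adjusted p = 0.038. In FR>FFPE (0.38, SE 0.40) and FR>OH (-0.07, SE 0.40) it was not called. Leaving out 20B, 20D, 21C, 75C, 80B, 82B, 8A, 8C or 90C ended the FR call (adjusted p = 0.052 to 0.105), and leaving out 18B, 18D, 20B, 21C, 75C, 80B, 82B, 8A, 8D or 90C the FFPE call (adjusted p = 0.056 to 0.099). Read the other way, FFPE vs. FR was 2.03 (SE 0.43) in Con mice, edgeR adjusted p = 7.6e-05, where 13.3% of genes were called, and -0.72 (SE 0.45) in PB mice. In DESeq2 the PB value was -1.03 and called too. Within the mouse, Maff was higher in FFPE in 6 of 6 Con mice, by 1.31 ± 0.35 on the log2(CPM + 0.5) scale, and lower in 6 of 6 PB mice, with a mean difference of -0.64 ± 0.54.

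The difference between the treatments in the change of Maff was itself tested. As PB minus Con it was -2.75 (SE 0.62) with an adjusted p of 0.69 in edgeR, where 0% of 13370 genes passed, 463 had an unadjusted p under 0.05, and DESeq2 called 0, with Maff at an adjusted p of 0.053. With the replicate block it was -2.83 (SE 0.47) with an edgeR adjusted p of 0.0028, and Maff was the only gene called (0.00748% of all). Without mouse 20D, which had the highest Maff of the PB mice in all 4 preparations, the fit with no block gave -3.17 with an edgeR adjusted p of 0.0059, and no call was made on leaving out any other mouse (-2.56 to -2.86). All 6 FFPE Con libraries were in lane 1, as were 4 of 6 FFPE PB libraries. Within lane 1, mean Maff was 2.10 CPM in 6 Con and 0.763 CPM in 4 PB libraries, a difference of -1.24 on the log2(CPM + 0.5) scale (exact two-sided permutation p = 0.0476, or 0.476 adjusted over the 10 genes). With lane as a term FFPE vs. FR in Con mice was 1.83 (edgeR adjusted p = 0.14). The part of lane and depth in the result was not tested beyond these values.

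**Figure D4:**
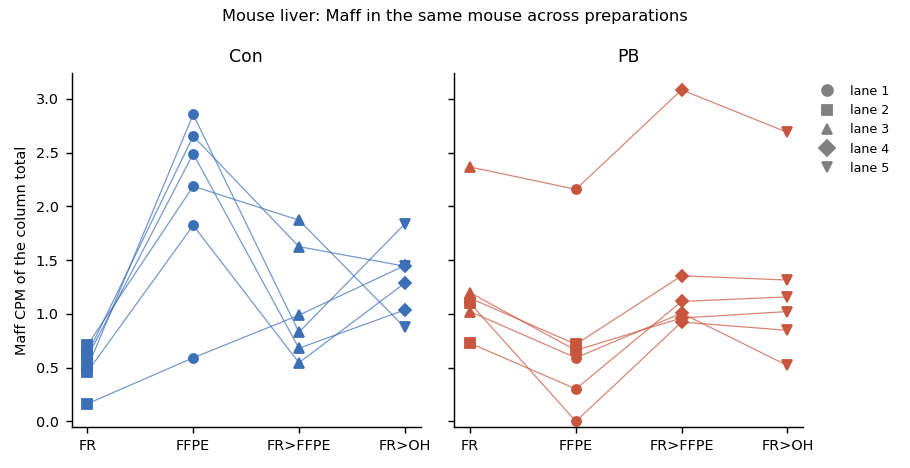
Maff in the 4 preparations of each mouse (y axis, CPM of the column total), Con and PB mice in separate panels. Each line is 1 mouse and each marker shape a lane number from the library name. In Con mice FFPE lies above FR in 6 of 6, and in PB mice below FR in 6 of 6, with mouse 20D highest of the PB mice throughout.

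Of the other genes, Junb was called lower with PB in FR>OH at -1.25 (SE 0.31), edgeR adjusted p = 0.004, where 2.42% of all genes were called, but was under 2-fold without mouse 90C (-0.94). Its values in FR (-0.77), FFPE (-0.48) and FR>FFPE (-0.55) did not pass. Atf3 had 1.09 (SE 0.40) with PB in FR, edgeR adjusted p = 0.084, and Jun 0.81 (SE 0.27) in FFPE, edgeR adjusted p = 0.058. None of the 10 was called in FR>FFPE in edgeR or DESeq2, where 1.87% of all genes were, and 2 had an unadjusted p under 0.05. In FR>OH the PB effect lay below that in FR in 10 of 10 genes, with a median difference of -0.33 against 0.02 over all genes, and edgeR called 0 of 13370 genes (305 at an unadjusted p under 0.05), as did DESeq2.

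Relatives in the same pathway were read from 4 lists in FFPE vs. FR, where 9.52% of all genes were called higher in both treatments and 1.28% lower. Of 9 tested AP-1 and leucine zipper relatives 4 rose, among them Mafg by 1.44, Jund by 1.24 and Fosl2 by 1.11 on the log2 scale, with a list median of 0.78 against 0.32 for all genes. Of 20 other early transcription factors 2 rose, the circadian regulator Per1 (1.30) and the nuclear receptor Nr4a1 (1.30). Of 32 feedback and other early genes 4 rose: the stress cytokine Gdf15 (1.55), the kinases Sik1 (1.31) and Pim3 (1.05) and Tob2 (1.22). Of 17 upstream kinases and factors 3 rose: Elk1 (1.38), Srf (1.29) and its coactivator Mkl1 (1.19), which act at the CArG box. On the authors' total the genes named here stood between 0.11 (Pim3) and 0.61 (Gdf15) and none passed. In the tissues frozen first, Mafg was called in FR>FFPE vs. FR (1.24) and in FR>OH vs. FR (1.06), and Gdf15 in FR>OH vs. FR (1.14).

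In rat liver 8 of the 10 genes could be tested. Dusp1 had no count in any library and Fos at most 1, and whether the panel holds probes for such genes could not be told from the files. Among the 8, Maff and Junb had the largest differences, in steps over the 3 preparations. Levels here are CPM with TMM scaling, and are not compared between genes because each is read by its own probes. Total counts were 3040915 to 3970187 in FR, 2156625 to 3898088 in FR>FFPE and 139475 to 889128 in FFPE. Marker lists differed between the preparations too. Summed hepatocyte markers had medians of 213398 CPM of the column total in FR, 196003 in FR>FFPE and 130248 in FFPE. Stellate and mesenchymal markers had 303, 2136 and 1245 CPM, with 4 of 7 at 0 (Lrat, Reln, Des and Rgs5), and macrophage markers 292, 661 and 665 CPM, with 5 of 10 at 0 (Clec4f, Vsig4, Cd5l, Timd4 and Marco). Cholangiocyte markers had 5.81, 23.4 and 53.5 CPM, with Epcam and Sox9 at 0. Endothelial markers had 242, 213 and 385 CPM, with 5 of 6 at 0 (Stab1, Stab2, Clec4g, Lyve1 and Oit3). Their part in the differences of the 8 genes was not tested.

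Maff had 0.528, 0.938 and 2.93 CPM (lowest, median, highest) in FR, 4.22, 7.24 and 11 CPM in FR>FFPE and 23.3, 49 and 82.8 CPM in FFPE. The 3 groups did not overlap, which held for 64.1% of all genes between FFPE and FR, 46.3% between FR>FFPE and FR and 25.6% between FFPE and FR>FFPE. Its log2 fold change was 5.42 (SE 0.40) for FFPE vs. FR, edgeR adjusted p = 2e-11, 2.62 (SE 0.43) for FR>FFPE vs. FR and 2.80 (SE 0.31) for FFPE vs. FR>FFPE. Junb had 0.586, 1.98 and 4.30 CPM in FR, 2.37, 8.29 and 10.6 CPM in FR>FFPE and 35.3, 39.4 and 45.8 CPM in FFPE. FFPE stood apart from both other groups, which overlapped. Its log2 fold changes were 4.14 (SE 0.37), 1.67 (SE 0.38) and 2.47 (SE 0.31) in the same order, all past the edgeR test. The FR medians rest on 2 counts for Maff and 4 for Junb.

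For FFPE vs. FR in rat liver 4 of 8 genes were called, where 64.3% of all 2281 genes tested were, the others being Ier2 at 1.09 (SE 0.20) and Ier3 at 1.29 (SE 0.28). For FR>FFPE vs. FR 5 were called, where 49.9% were: Ier3 at 1.35 (SE 0.26), Junb and Maff higher, and Egr1 at -1.17 (SE 0.25) and Zfp36 at -1.26 (SE 0.36) lower. Egr1 had 65.2, 147 and 208 CPM in FR against 41.0, 57.9 and 93.4 CPM in FR>FFPE, and Zfp36 169, 286 and 554 against 40.8, 107 and 264 CPM. Both pairs of groups overlapped. FFPE vs. FR>FFPE called Junb and Maff, where 34.1% of all genes were called. Without scaling the median of all genes moved from 0.35 to 1.97 in FFPE vs. FR and from 0.37 to 1.08 in FR>FFPE vs. FR. Egr1 and Zfp36 were then at -0.48 each in FR>FFPE vs. FR and no longer called, and in FFPE vs. FR their values of -0.44 and -0.71 turned above 0.

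**Figure D5:**
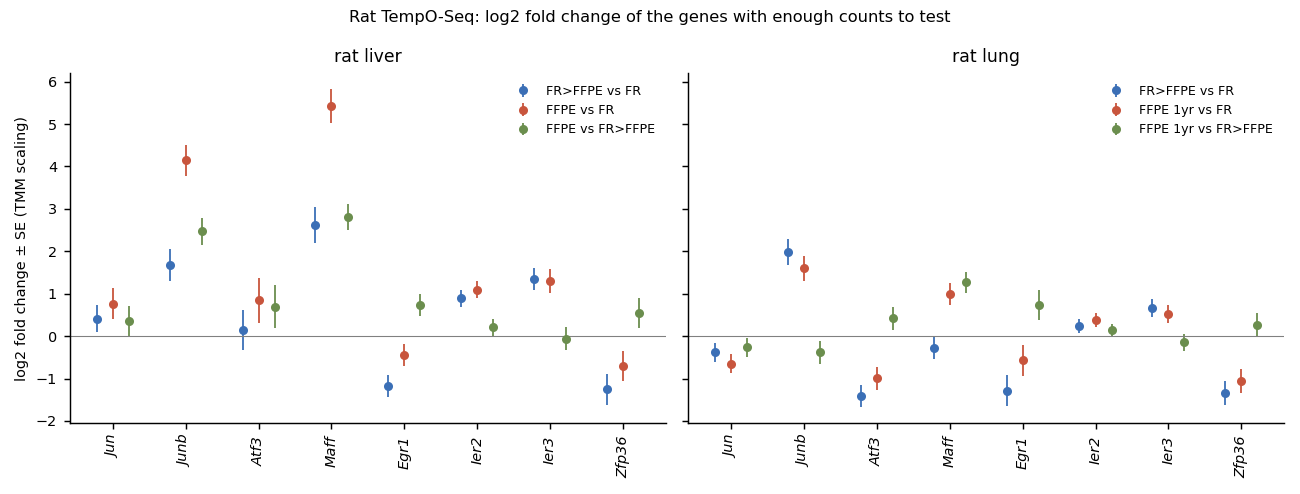
Log2 fold changes (y axis, TMM scaling) of the 8 genes tested in rat liver and in rat lung by TempO-Seq, 1 colour per comparison, with bars for the SE of edgeR. Maff at 5.42 and Junb at 4.14 stand farthest from 0 in rat liver, and Zfp36 lies below 0 against FR in lung with this scaling and without it.

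In rat lung Junb rose and Zfp36 fell in both fixed preparations. The FR library of replicate 54 held only 12 counts and was left out, so FR had n = 5. Total counts were 802686 to 1786809 in FR>FFPE and 226751 to 1634580 in FFPE 1yr. The 7 lung markers listed (Sftpa1, Sftpb, Sftpc, Sftpd, Scgb1a1, Ager and Cldn18) were at 0 in every group, so the tissue could not be checked by them. Summed stellate and mesenchymal markers, with 4 of 7 at 0, had medians of 1570 CPM of the column total in FR, 5281 in FR>FFPE and 4720 in FFPE 1yr. In the same order, neutrophil and blood markers had 2814, 1140 and 1874 CPM. Hepatocyte markers had 73.7, 255 and 245 CPM, with the highest FFPE 1yr library at 1914 CPM. Markers of the cholangiocyte list, which other epithelia share, had 2068, 1463 and 1576 CPM, with 2 of 5 at 0. Macrophage markers had 372, 453 and 572 CPM, with 5 of 10 at 0. Their part in the results was not tested. Junb had 8.20, 19.0 and 25.7 CPM (TMM-scaled) in FR, 32.6, 67.4 and 127 CPM in FR>FFPE and 35.5, 56.0 and 65.1 CPM in FFPE 1yr. Neither fixed group overlapped with FR, as was so for 65.5% and 64.3% of all genes. The log2 fold changes were 1.98 (SE 0.30) in FR>FFPE and 1.60 (SE 0.30) in FFPE 1yr, with edgeR adjusted p of 4.9e-06 and 7.5e-05.

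Zfp36 had 1736, 2017 and 2409 CPM in FR, 268, 941 and 1145 CPM in FR>FFPE and 583, 945 and 1434 CPM in FFPE 1yr, and again neither fixed group overlapped with FR. Its log2 fold changes were -1.33 (SE 0.28) and -1.07 (SE 0.28), with edgeR adjusted p of 0.00024 and 0.0019. Without scaling they were -0.63 and -0.34, below 0 but no longer called, and the median of all genes moved from 0.35 to 1.06 and from 0.24 to 0.99. The FFPE 1yr value was also under 2-fold without replicate 61 (-0.99) or 63 (-0.95).

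In FR>FFPE lung Atf3 at -1.41 (SE 0.26) and Egr1 at -1.29 (SE 0.37) were called too, both below 0 without scaling as well, so that 4 of 8 genes were called, where 56% of all 2322 genes were. In FFPE 1yr vs. FR 2 of 8 were called, where 53.3% were, with Atf3 (-0.998) and Maff (0.99) just under 2-fold. Without replicate 63 of FFPE 1yr 1 gene was called, and without replicate 66 there were 4. Maff had 32.0, 59.7 and 102 CPM in FR>FFPE and 116, 165 and 242 CPM in FFPE 1yr with no overlap, as was so for 11.8% of all genes, and was the 1 gene called between them at 1.27 (SE 0.25), edgeR adjusted p = 0.00096, where 12.8% of all genes were called.

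The same lists of relatives were read in the rat tables. In rat liver FFPE vs. FR, 3 of 4 tested AP-1 and leucine zipper relatives rose and 1 fell, where 39.9% of all genes rose and 24.4% fell: Mafk by 5.44, Fosl1 by 4.73 and Atf4 by 1.94, and Ddit3 at -1.36 on the log2 scale, which turned to 0.21 without scaling. Of 10 other early transcription factors 5 rose, among them the zinc finger factor Egr2 (7.17), Nr4a1 (4.54) and Btg2 (4.14). Of 13 feedback genes 7 rose and 2 fell, with the MAP kinase phosphatase Dusp4 at 5.05 and the pseudokinase Trib1 at -2.0. Of 6 upstream kinases and factors none rose and 3 fell, Stat3 (-1.10), Mapk14 (-1.09) and Mapkapk2 (-1.06), but without scaling these were above 0 (0.43, 0.55 and 0.53). The list median was -0.61 against 0.35 for all genes. In rat liver FR>FFPE vs. FR, 49.9% of all genes were called. There 3 of 4 AP-1 and leucine zipper relatives rose, among them Mafk (2.56) and Fosl1 (2.55). Of 10 other early transcription factors 4 rose, among them Egr2 (3.59), Nr4a1 (3.56) and Btg2 (3.29), and 1 fell. Of 13 feedback genes 6 rose, Dusp4 (2.07) among them, and 2 fell. Of 6 upstream genes none rose and 2 fell. In lung FFPE 1yr vs. FR, where 36.2% of all genes rose and 17.1% fell, 2 of 5 AP-1 and leucine zipper relatives rose, Mafk (3.92) and Fosl1 (2.29), and Ddit3 (-1.81) fell. Of 11 other early transcription factors 2 rose and 1 fell, and of 13 feedback genes 3 rose, Dusp4 (3.39) among them, and 2 fell, Trib1 (-1.57) among them. The medians of these lists were -0.07 and -0.17 against 0.24 for all genes. Of 6 upstream genes none rose and Stat3 (-1.01) fell, at -0.30 without scaling and not called. In lung FR>FFPE vs. FR, 56% of all genes were called. There 3 of 5 AP-1 and leucine zipper relatives rose, Mafk (3.09) among them, and 1 fell. Of 11 other early transcription factors 2 rose and 2 fell. Of 13 feedback genes 3 rose, Dusp4 (2.59) among them, and 2 fell, and of 6 upstream genes 1 fell.

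In AML12 cells 1 of 5 testable genes was called after 10 min in formalin, in libraries of 444288 to 2325990 counts. Junb, Ier2 and Dusp1 had no count in any of the 12 libraries, Zfp36 at most 1 and Fos at most 11. Of 7 hepatocyte markers, Alb, Cps1 and Serpina1c were at 0. Summed over the list, medians were 838 CPM of the column total in vehicle and 621, 532 and 349 CPM at 0.006%, 0.03% and 0.1% formalin. Whether the panel holds probes for genes at 0 could not be told from the files, so a 0 is not read as absence of the transcript. Egr1 had 15.0, 19.5 and 19.6 CPM of the column total in the 3 vehicle cultures, 4.84, 11.3 and 14.4 CPM with 0.006% formalin, 4.82, 11.3 and 11.4 CPM with 0.03% and 5.80, 5.86 and 9.46 CPM with 0.1%. Every formalin culture lay below the vehicle cultures, on 3 to 40 counts per library. At the 3 concentrations 5.86%, 9.75% and 37.6% of all genes did not overlap with vehicle in either direction.

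The log2 fold change of Egr1 was -0.79 (SE 0.41) at 0.006%, -1.15 (SE 0.42) at 0.03% and -1.53 (SE 0.40) at 0.1% formalin. The last passed, with an edgeR adjusted p of 0.012, where 4.84% of 1570 genes were called. That call was lost without the 0.1% cultures 95 (adjusted p = 0.064) or 96 (0.063) or the vehicle culture 94 (0.051). At 0.006% and 0.03% edgeR called 0 of 1570 genes, with 28 and 62 at an unadjusted p under 0.05, and DESeq2 called 0. Among the 5 genes Egr1 was at an unadjusted p under 0.05 at 0.03%. Over the 3 concentrations, log2 differences from vehicle were -0.03 to 0.09 for Jun, 0.03 to 0.26 for Atf3, -0.67 to 0.02 for Maff and -0.63 to 0.13 for Ier3, none past the test. The labels do not say whether the cultures, or the rat tissues of a group, had separate origins, so these p-values measure the spread between the samples given.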

How the data were processed

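Total RNA of mouse liver was depleted of rRNA and sequenced, and rat liver, rat lung and AML12 cells were read by TempO-Seq. For mouse liver the authors trimmed the reads (CASAVA 1.8.2 made the read files), aligned them with STAR 2.5.3a to mm10 and deposited estimated counts per RefSeq gene from the expectation-maximisation step of Partek Flow. The authors also deposited log2 CPM values, whose divisor was recovered from the 2 tables and used as an alternative total. The deposited TempO-Seq tables were read as estimated counts too, and their aligner is not given in the sources used here.

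Counts were rounded to whole numbers. Genes with a geometric mean count over 1 (offset 0.0001) were kept in mouse liver, 13370 of 24543, and edgeR 4.0.16 (R 4.3.3) fitted 8 group means by quasi-likelihood with the total over kept genes as library size. Calls needed an adjusted p (Benjamini-Hochberg) below 0.05 together with a 2-fold difference, and between preparations the same direction in both treatments. TempO-Seq tables were fitted one by one with TMM scaling and filterByExpr, without the library of 12 counts. Alternatives were DESeq2 1.42.0, limma 3.58.1 on the log2 CPM, TMM scaling, other filters, lane as a term, a replicate block, a length and GC trend, and leaving out each mouse or library. The within-lane test and the split of the sum of squares were added after the data were seen. Fits were tested on simulated data. Lanes are the L numbers in the library names, which the labels do not explain in words. Depth limits Fos, Atf3, Maff and Ier3 most, and limits that a count of 0 allows cover counting error only.

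The mouse pairs the preparations, as the labels give each mouse 1 number in 4 groups: residuals of same-mouse libraries correlated at a median of 0.709 (72 of 72 pairs over 0.1, 7693 genes), and those of different mice at -0.127. All 10 genes are counted in each comparison where they could be tested, and of the pathway lists the genes called, up to 6 a list and mouse comparison, of which 1 is not reported here. The genes, the pathway and marker lists and the tests were chosen with earlier results of these data known. The deposited log2 CPM of the TempO-Seq tables was not used, and promoters of Egr1 and Ier2 were not analysed here.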

Additional observations from a re-analysis of the deposited data

Results flagged for a closer look

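Of 128 groups of libraries, 20 had 1 library far from the others by Dixon's test on untransformed CPM. Chance gives about 1 in 20 for independent groups of normally spread values. CPM need not spread so, and the preparations of mouse liver share the same mice, so the 20 are not set against that share. Most of the 20 came from 3 mice. In mouse 90C, Egr1 stood above the other Con mice at 31.2 CPM (FR), 63.9 CPM (FFPE), 67.3 CPM (FR>FFPE) and 76.8 CPM (FR>OH), and Junb in FR (29.7 CPM) and Fos in FR>FFPE (3.84 CPM) did too. In mouse 20D, Maff stood above the other PB mice at 2.37 CPM with freezing alone, 2.16 CPM in FFPE and, after freezing, 3.08 CPM in formalin and 2.69 CPM in ethanol, as did Egr1 at 35.1 CPM (FR>FFPE) and 32.3 CPM (FR>OH) and Junb at 21.5 CPM in FR>OH. In mouse 18B, Dusp1 stood at 35.6 CPM in FFPE and 33.9 in FR>FFPE. Jun was high in FR of mouse 8C (12.7 CPM) and low in FR>OH of mouse 18D (11.6 CPM), and Ier3 was high in FFPE of mouse 8C (1.58 CPM). Among rat libraries, Maff was high in FR liver of replicate 68 (2.93 TMM-scaled CPM) and Jun in FR lung of replicate 49 (171 TMM-scaled CPM). The causes were not tested.

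The change of Maff from FR to FFPE differed by -2.83 (PB minus Con) on the log2 scale with the replicate block, 6 of 6 Con mice moving up and 6 of 6 PB mice moving down.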

How the results depend on the processing

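Over the 10 genes, the count called in FFPE vs. FR in both treatments went from 1 to 0 with DESeq2, with limma and on the authors' total, to 2 with the replicate block and to 4 with the adjusted p alone. With the adjusted p alone 4 were called in FR>FFPE vs. FR and 3 in FR>OH vs. FR, from 0. For PB vs. Con the 1 call became 0 in FR with lane as a term, with limma and with no filter, and 0 in FFPE with lane as a term, with limma and on the authors' total. The test of the difference in Maff went from 0 to 1 call with the replicate block, and the block added or ended no other call of both treatments. In rat liver without scaling, calls went from 4 to 7 in FFPE vs. FR and from 2 to 7 in FFPE vs. FR>FFPE. In rat lung they went from 4 to 2 in FR>FFPE vs. FR and from 2 to 4 in FFPE 1yr vs. FR. The adjusted p alone gave 7 in the last of these. The median of all genes also moved, from 0.35 to 1.97 and from 0.07 to 0.98 in rat liver. In rat lung it moved from 0.35 to 1.06 and from 0.24 to 0.99. Shares of all genes called without scaling are not given here, so these counts are not set against them. Leaving out 1 mouse gave 0 to 1 calls for PB vs. Con in FR, FFPE and FR>FFPE, 0 to 2 in FR>OH, and 0 to 1 for the difference in Maff. Leaving out 1 library gave 1 to 4 calls in rat lung FFPE 1yr vs. FR and 0 to 1 in AML12 at 0.1% formalin. The other counts did not move by over 1.5 times. No value of the 10 genes past both the adjusted p and 2-fold changed sign, while Dusp1, Ier2 and Jun, past the adjusted p alone in FFPE vs. FR, were at -0.07, -0.12 and -0.16 on the authors' total, and of the relatives Ddit3, Stat3, Mapk14 and Mapkapk2 in rat liver turned above 0 without scaling. The causes were not tested.

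Over all genes, FFPE vs. FR called 1273 higher and 171 lower on the total over tested genes, 572 and 485 with TMM scaling and 72 and 2942 on the authors' total. FR>FFPE vs. FR called 530 and 3, then 161 and 16, then 108 and 59, and FR>OH vs. FR 335 and 7, then 169 and 32, then 96 and 76. A fit with lane could not be made for comparisons of FR>FFPE PB or FR>OH with the other groups. No paired analysis was possible because the labels give the rat and AML12 groups no shared replicate numbers.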

Other observations

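The genes whose levels most resembled the mean of the 10 over the 48 mouse liver libraries were Grb7 (Pearson r 0.820), an adaptor of growth factor receptors, Lrrc3 (0.808), Bbc3 (0.801), which encodes the p53 target PUMA, Zfp36l1 (0.795), a relative of Zfp36, and Khnyn (0.793). Among the 10, Junb and Egr1 (0.733) and Junb and Zfp36 (0.710) were most alike, and Junb and Atf3 least (-0.281). All 48 libraries share the 12 mice and the 4 preparations, and these values carry no test.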
